A study of Homo sapiens with 8 samples.

Results

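The transcripts described here carry the names of 3 families of noncoding RNA: long intergenic noncoding RNAs (LINC), microRNA host transcripts (MIRHG) and small nucleolar RNA host transcripts (SNHG). They were chosen by symbol and by abundance: of 60623 genes in the table, 2348 carried such a name, 1569 of these had no read in any library, and the 109 whose counts summed to at least 200 reads over the 8 libraries were kept. These comprised 72 of 2246 LINC, 15 of 74 MIRHG and 22 of 28 SNHG symbols. In the GENCODE 29 annotation 2 of the 109 are typed as protein-coding, SNHG32 (as C6orf48) and LINC02693 (as C17orf51), and 6 as transcribed pseudogenes, LINC00475 and LINC00888 among them. The abundance of the members is therefore a description and not a result, and all 109 were among the 15010 genes tested. Just inside the limit lay MIRLET7A1HG with 210 reads, LINC01123 with 206 and LINC01444 with 205, and just outside it LINC03015 with 196, LINC01547 with 194 and LINC00920 with 191.

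Polyadenylated RNA was sequenced from ARPE-19, an established human line of retinal pigment epithelium, the pigmented layer behind the photoreceptors. Cells received for 24 h either 200 µg/mL diesel particulate matter (SRM 1650b, called PM2.5 in the labels) together with 400 µg/mL fucoidan from Fucus vesiculosus (combination), the particulate alone (particulate), fucoidan alone (fucoidan), or PBS (control). Fucoidan is a sulfated polysaccharide of brown seaweed. There were 2 biological replicates per group, so every mean rests on n = 2. The p-values set differences between groups against the spread of replicates within groups, estimated from these 8 libraries. The particulate was first suspended in DMSO and no DMSO-only library was analysed here, so the particles and their solvent cannot be told apart.

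LINC RNAs are polyadenylated transcripts, many of them spliced, without a known protein product, and most are poorly characterised. MIRHG transcripts hold microRNA hairpins in introns or exons, which Drosha and Dicer cut into mature microRNAs that repress messenger RNAs through a short seed. SNHG transcripts carry snoRNAs in their introns; the snoRNAs guide chemical modification of ribosomal RNA in the nucleolus, while many of the spliced host RNAs start with a terminal oligopyrimidine (TOP) tract and are degraded by nonsense-mediated decay when translated. The libraries measured the host transcripts, not the mature microRNAs or the snoRNAs.

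For the MIRHG hosts called in at least 1 comparison, 1 mature arm of each hairpin named here is printed from RefSeq (GRCh38.p14), with the seed, bases 2 to 8, in capitals; the other arms are left out. MIR222HG on chromosome X holds 2 microRNAs that share the seed GCUACAU:
hsa-miR-221-3p: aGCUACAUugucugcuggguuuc
hsa-miR-222-3p: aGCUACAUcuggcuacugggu
MIR155HG on chromosome 21, MIR31HG on chromosome 9, MIR210HG and MIR100HG on chromosome 11, MIR22HG on chromosome 17 and MIR193BHG on chromosome 16 hold microRNAs with seeds that differ from one another:
hsa-miR-155-5p: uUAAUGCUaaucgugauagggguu
hsa-miR-31-5p: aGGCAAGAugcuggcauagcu
hsa-miR-210-3p: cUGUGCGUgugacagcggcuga
hsa-miR-100-5p: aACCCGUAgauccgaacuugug
hsa-miR-125b-5p: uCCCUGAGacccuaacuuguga
hsa-let-7a-5p: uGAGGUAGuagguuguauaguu
hsa-miR-22-3p: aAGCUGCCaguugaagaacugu
hsa-miR-193b-3p: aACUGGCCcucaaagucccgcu
hsa-miR-365a-3p: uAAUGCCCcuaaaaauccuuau
LINC00472 on chromosome 6 is a LINC by name, but its gene spans 2 members of the miR-30 family, which share the seed GUAAACA:
hsa-miR-30a-5p: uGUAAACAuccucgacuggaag
hsa-miR-30c-5p: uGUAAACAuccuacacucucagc

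Host transcripts of the SNHG family are represented by 1 snoRNA each of a host that rose, a host that fell and the most abundant host. These sequences are from GENCODE 29 (GRCh38). Capitals mark TGATGA near the 5′ end and CTGA near the 3′ end, the C and D boxes by which this class of snoRNA is recognised. SNORD27 lies in SNHG1 (chr11:62855012-62855083, minus strand), SNORD123 in SNHG18 (chr5:9548836-9548905, plus strand) and SNORD49A in SNHG29 (chr17:16440036-16440106, plus strand):
SNORD27: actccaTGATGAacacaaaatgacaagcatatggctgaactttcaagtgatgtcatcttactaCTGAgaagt
SNORD123: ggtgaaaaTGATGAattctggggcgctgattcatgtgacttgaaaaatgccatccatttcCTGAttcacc
SNORD49A: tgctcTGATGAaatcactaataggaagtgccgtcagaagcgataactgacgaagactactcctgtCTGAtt
In the same annotation, 14 of the 15 MIRHG members span 24 microRNA genes and 20 of the 22 SNHG members span 129 snoRNA genes, 84 of them in SNHG14, the long transcript of the imprinted SNORD116 and SNORD115 clusters.

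Total counts ran from 12993565 to 17019284 per library. Combination replicate 1 stood apart from its replicate: 20 of the 109 members (18.3%) differed at least 2-fold between the 2 combination libraries, against 7.75% of all genes tested, and 2 members (1.83%) did so between the particulate libraries, against 1.28% of all genes. No member differed that far between the fucoidan or the control libraries. The 15 hypoxia-induced genes listed were higher in replicate 1 than in replicate 2 of the combination in 15 of 15 cases, and higher in replicate 2 of the particulate group in 15 of 15. The summed level of 18 retinal pigment epithelium markers was 1655 to 1855 CPM (normalised counts scaled to library size) in combination, 1728 to 2242 CPM in particulate, 3717 to 3877 CPM in fucoidan and 3366 to 3650 CPM in control cells. Most of that sum was keratin 8 and keratin 18. RPE65, DCT, TTR, MLANA and RGR of this list were at or near 0 in all 8 libraries. BEST1, TYR, TYRP1, MERTK and SERPINF1 had low control means, of 0.514, 0.234, 0.231, 0.680 and 1.67 CPM. Other markers of the same list were present in every library, with control means of 81.9 CPM for OTX2, 71.2 CPM for MITF, 11.0 CPM for PMEL, 6.80 CPM for LRAT, 5.09 CPM for RLBP1 and 3.72 CPM for RDH5. The 4 endothelial markers summed to at most 0.702 CPM and the 4 leukocyte markers to at most 1.73 CPM in any library. Among 5 fibroblast markers DCN and LUM were near 0, and the sum, mainly COL1A1, was 46.2 to 49.0 CPM in combination, 14.5 CPM in particulate, 169 to 201 CPM in fucoidan and 59.7 to 77.3 CPM in control cells. Of 6 neural retina markers, summing to 18.4 to 32.6 CPM over the libraries, RBPMS made up most. The part of these shifts in the results was not tested. In bulk samples, fewer cells of a type and less RNA per cell cannot be told apart.

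The 109 members took a small share of all counts. That share was 0.182% and 0.198% in the 2 combination libraries, 0.226% and 0.193% in the particulate libraries, 0.222% and 0.231% in the fucoidan libraries and 0.217% and 0.218% in the control libraries. Its exact 95% binomial interval in combination replicate 1 ran from 0.180% to 0.184%, which covers counting error only. The 2 libraries of the combination lay below those of fucoidan and control, while the 2 particulate libraries lay on either side of the control pair.

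SNHG transcripts were the most abundant family. On the deposited TPM scale, which corrects for length, the mean over the 8 libraries had a median of 27.8 TPM for SNHG, 4.14 TPM for LINC and 1.78 TPM for MIRHG members, with a range over all 109 from 0.438 TPM (LINC01588) to 302 TPM (SNHG29). SNHG29 alone held 74196 reads. It was followed by SNHG19 at 155 TPM, SNHG6 at 135 TPM, SNHG1 at 87.1 TPM, SNHG5 at 68.9 TPM and SNHG16 at 64.0 TPM. LINC01638 was the most abundant LINC at 50.9 TPM, a mean that hides a difference between groups described next, and SNHG32, LINC00294, SNHG8, SNHG3 and MIR210HG completed the 12 most abundant at 36.5 to 50.4 TPM.

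Particulate cells differed from control cells in 37 of the 109 members, 13 higher and 24 lower (33.9%), at an adjusted p under 0.05 (edgeR's quasi-likelihood test, Benjamini-Hochberg adjustment over all genes). Of all 15010 genes tested 20.6% were called, 9.11% higher and 11.5% lower. Because members were chosen for abundance, the same shares among genes with at least 200 reads are given: 10.7% of 11527 protein-coding genes were higher and 11.2% lower, and 5.81% of 499 other long noncoding genes were higher and 16.2% lower. The median log2 fold change was −0.27 over the members, −0.31 over those other noncoding genes and 0.06 over the protein-coding genes. By family, 6 LINC members were higher and 23 lower of 72, 3 MIRHG were higher and 0 lower of 15, and 4 SNHG were higher and 1 lower of 22. For MIRHG, 5 of 15 had an unadjusted p under 0.05. No test of the difference between families was made.

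**Figure D1:**
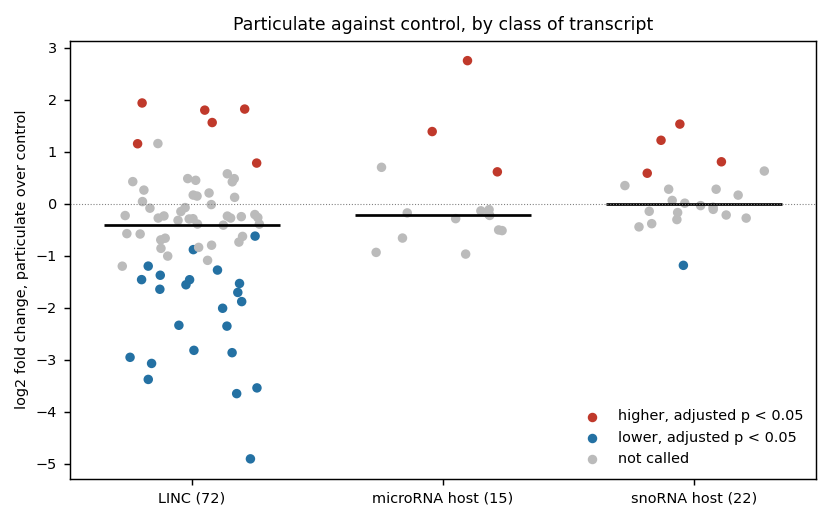
Log2 fold change of particulate over control cells (y axis) for each of the 72 LINC, 15 microRNA host and 22 snoRNA host transcripts (x axis, points spread sideways for visibility); red points were called higher and blue points lower at an adjusted p under 0.05, and black lines are family medians. Called LINC transcripts lie mostly below 0 (23 of 29), whereas 7 of the 8 called host transcripts lie above it. Called or not, 11 of the 15 microRNA hosts and 11 of the 22 snoRNA hosts lie below 0. The share called was 20% of microRNA hosts and 22.7% of snoRNA hosts, near the 20.6% of all genes tested.

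The deepest losses were in LINC transcripts. LINC01111 (chr8:76406654-76524356) had 0.866 and 0.446 CPM in combination, 0.115 and 0.367 CPM in particulate, 13.1 and 12.3 CPM in fucoidan and 7.01 and 7.73 CPM in control cells. It was low in all 4 libraries with particulate and high in all 4 without, and in particulate cells it rested on 8 reads in all, 2 in one library and 6 in the other. Its log2 fold change of particulate over control was −4.91 ± 0.42 (SE, adjusted p = 9.45e-05).

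LINC01638 (chr22:27221349-27224727), the most abundant LINC, had 2.67 and 6.30 CPM in combination, 2.71 and 1.71 CPM in particulate, 34.5 and 36.0 CPM in fucoidan and 30.5 and 25.5 CPM in control cells. The groups with and without particulate did not overlap, and the fold change of particulate over control was −3.65 ± 0.37 (adjusted p = 0.000198). LINC02984 (chr8:53515171-53523931) had 0.933 and 2.12 CPM in combination, 1.10 and 1.53 CPM in particulate, 18.95 and 13.9 CPM in fucoidan and 15.7 and 14.95 CPM in control cells. The gap again separated all particulate-exposed from all other libraries (−3.54 ± 0.35, adjusted p = 0.000176). LINC01843 (chr5:134506552-134509229) repeated this order at a lower level, with 0.267 and 0.724 CPM in combination, 0.288 and 0.428 CPM in particulate, 4.45 and 4.13 CPM in fucoidan and 3.54 and 4.03 CPM in control cells (−3.38 ± 0.43, adjusted p = 0.000731).

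The remaining 8 of the 12 largest decreases, all in LINC transcripts, ranged from −3.07 for LINC02874 to −1.88 for LINC02159. Between these lay LINC01239 (−2.95), LINC01836 (−2.87), LINC00968 (−2.82), LINC00842 (−2.35), LINC00475 (−2.34) and LINC02709 (−2.01). In each of the 12 both particulate libraries lay below both control libraries. This was set by the choice, since only called members without overlap between the 2 groups were named. Of all 109 members, called or not, 79 showed no overlap in this comparison. All 12 were also lower in the combination than with fucoidan alone. Of these 12, 9 kept their call whichever of the 8 libraries was left out. LINC02874 lost it without control replicate 1 or particulate replicate 2 (adjusted p up to 0.0627), as did LINC00842 (up to 0.0557), and LINC02709 lost it without control replicate 1 or particulate replicate 1 (up to 0.0582). LINC00842 lies in a duplicated region of chromosome 10 (chr10:46398362-46453306); the handling of multiply aligned reads by the authors was not stated in the sources used here, so its value is uncertain.

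Among the decreases of smaller size, LINC00472, the transcript spanning the miR-30a and miR-30c-2 hairpins printed above, had 2.33 and 6.30 CPM in combination, 4.67 and 4.03 CPM in particulate, 10.8 and 12.5 CPM in fucoidan and 16.9 and 11.6 CPM in control cells. The particulate-exposed libraries all lay below the others, with a fold change of particulate over control of −1.71 ± 0.38 (adjusted p = 0.0133). That call ended without control replicate 1 or either particulate replicate (adjusted p up to 0.134). LINC01133, a long noncoding RNA reported in human epithelial tumours to bind the splicing factor SRSF6, had 5.33 and 4.46 CPM in combination, 3.46 and 2.81 CPM in particulate, 10.6 and 12.7 CPM in fucoidan and 9.06 and 9.46 CPM in control cells (−1.56 ± 0.23, adjusted p = 0.00161, kept in all 8 left-out fits). LINC00294, a broadly expressed transcript, had 26.8 and 31.6 CPM in combination, 27.8 and 30.4 CPM in particulate, 52.3 and 51.5 CPM in fucoidan and 45.8 and 43.8 CPM in control cells. Its change was smaller (−0.62 ± 0.15, adjusted p = 0.0199) and the call ended without either control, either fucoidan replicate or particulate replicate 1 (adjusted p up to 0.161).

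**Figure D2:**
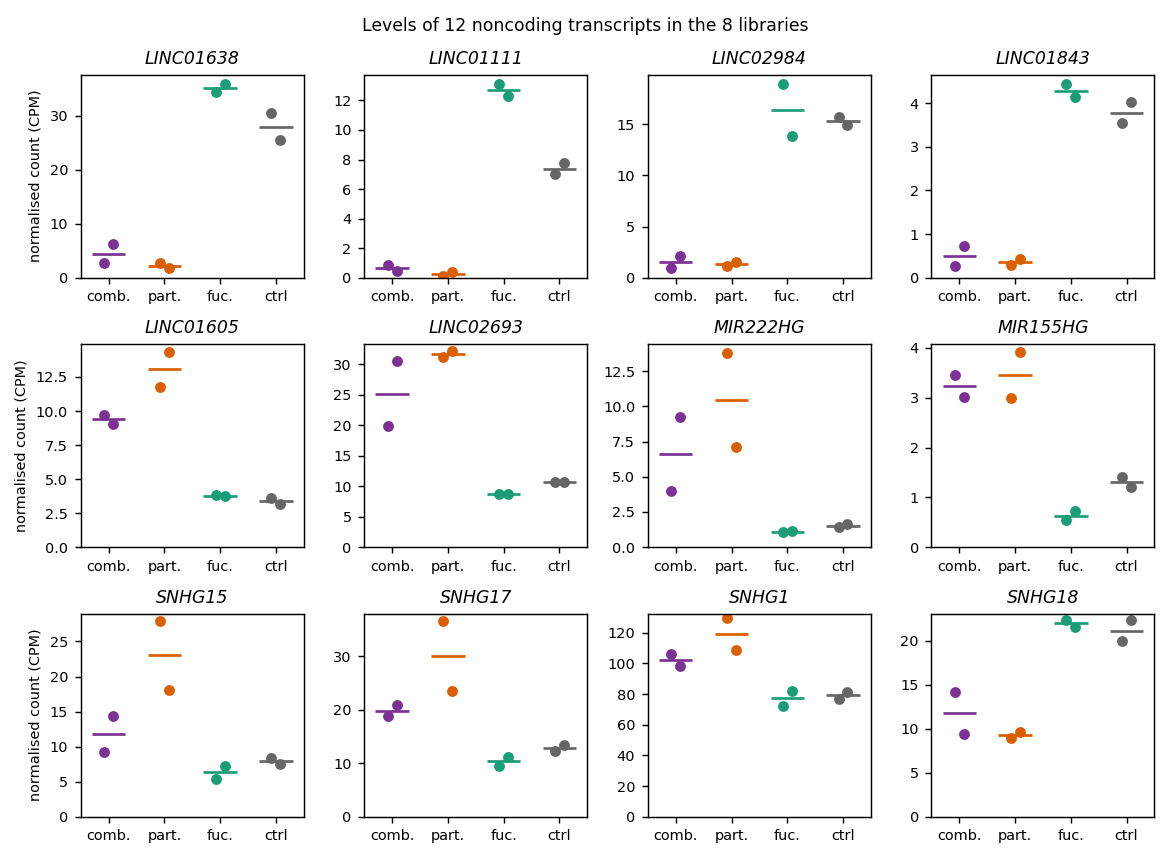
Normalised read counts (CPM, y axis, from 0) of 12 transcripts in the 8 libraries; points are libraries, lines are group means of n = 2, and the groups run from combination through particulate and fucoidan to control (x axis). The 4 LINC transcripts of the top row and SNHG18 are low in every particulate-exposed library. The LINC, MIRHG and SNHG transcripts between them lie higher in every exposed library than in any unexposed one. For SNHG15 this gap is small in combination replicate 1. SNHG15, SNHG17 and SNHG1 were not called in combination against control.

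A smaller set of LINC transcripts rose. LINC01605 (chr8:37421341-37554183) had 9.73 and 9.03 CPM in combination, 11.8 and 14.4 CPM in particulate, 3.82 and 3.77 CPM in fucoidan and 3.61 and 3.19 CPM in control cells. All particulate-exposed libraries lay above all others, and the fold change of particulate over control was 1.94 ± 0.22 (adjusted p = 0.000361). LINC02693 (chr17:21428381-21574517), typed as protein-coding in GENCODE 29, had 19.9 and 30.5 CPM in combination, 31.2 and 32.1 CPM in particulate, 8.74 and 8.68 CPM in fucoidan and 10.7 CPM in both control libraries (1.56 ± 0.21, adjusted p = 0.00113). Both kept this call in all 8 left-out fits.

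The other 4 LINC increases were less steady. LINC02454 (1.82) and LINC01357 (1.80) were below 2 CPM in control cells, and LINC00973 (1.15) and LINC00888 (0.78, a transcript spanning 4 snoRNA genes) were between 4 and 6 CPM there. The calls on LINC02454 and LINC01357 ended without control replicate 1 or particulate replicate 1, that on LINC01357 also without control replicate 2, that on LINC00973 without either control replicate, and that on LINC00888 without any 1 of the 6 libraries other than the combination. The highest adjusted p reached was 0.145 for LINC02454, 0.108 for LINC01357, 0.0758 for LINC00973 and 0.219 for LINC00888.

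MIR222HG, the host of miR-221 and miR-222, which in human cells repress the cell cycle inhibitor p27, showed the largest increase of all members. It had 3.998 and 9.25 CPM in combination, 13.8 and 7.09 CPM in particulate, 1.09 and 1.14 CPM in fucoidan and 1.42 and 1.66 CPM in control cells. Every particulate-exposed library lay above every other, although the replicates within each exposed group were far apart, and the fold change of particulate over control was 2.75 ± 0.46 (adjusted p = 0.0032, and 0.0526 without control replicate 1). MIR155HG, host of miR-155, a regulator of inflammatory responses, had 3.47 and 3.01 CPM in combination, 2.998 and 3.91 CPM in particulate, 0.546 and 0.718 CPM in fucoidan and 1.42 and 1.21 CPM in control cells. The exposed libraries were again all above the rest (1.39 ± 0.30, adjusted p = 0.0117). That call ended without either control or particulate replicate 2 (adjusted p up to 0.112).

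MIR31HG, host of miR-31 and itself reported to restrain the cell cycle inhibitor p16 in human cells, had 18.9 and 23.2 CPM in combination, 25.5 and 29.9 CPM in particulate, 16.5 and 15.6 CPM in fucoidan and 18.5 and 17.8 CPM in control cells. Particulate libraries lay above control libraries by 0.61 ± 0.18 (adjusted p = 0.0366), whereas the combination against control was not called (0.22 ± 0.18, adjusted p = 0.412). IFNE, an interferon gene within its span on the same strand, was higher as well (1.80 ± 0.46). The call on MIR31HG ended without either control, either fucoidan replicate or particulate replicate 2 (adjusted p up to 0.202). Of the 12 MIRHG members not called with particulate alone, MIR22HG, host of miR-22, had 16.5 and 21.7 CPM in combination, 19.7 and 15.03 CPM in particulate, 32.8 and 33.0 CPM in fucoidan and 25.2 and 24.5 CPM in control cells. Its fold change was −0.52 ± 0.20 for particulate over control (adjusted p = 0.0943) and −0.78 ± 0.20 for combination over fucoidan (adjusted p = 0.0216). The second value ended as a call without either control, either fucoidan replicate or combination replicate 1 (adjusted p up to 0.126).

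MIR210HG, host of the hypoxia-induced miR-210, was high in all 4 libraries without particulate and scattered in those with it: 13.2 and 5.52 CPM in combination, 8.59 and 20.9 CPM in particulate, 39.4 and 39.5 CPM in fucoidan and 29.3 and 27.0 CPM in control cells. The 2 hypoxia genes NDRG1 and CA9 had the same order of replicates. NDRG1 had 2579 and 115 CPM in combination and 222 and 769 CPM in particulate cells, and CA9 had 259 and 19.4 CPM in combination and 33.5 and 62.8 CPM in particulate cells; their part in the scatter of MIR210HG was not tested. MIR210HG was not called in particulate against control (−0.94 ± 0.42, adjusted p = 0.149) but was called lower in combination against control (−1.60 ± 0.43, adjusted p = 0.0346) and against fucoidan (−2.09 ± 0.44, adjusted p = 0.0104). The call against control ended without either control or either fucoidan replicate (adjusted p up to 0.182), and that against fucoidan without either fucoidan replicate (up to 0.0571).

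MIR100HG, host of miR-100, let-7a-2 and miR-125b-1, had the most reads per library of the MIRHG family. It had 30.4 and 65.4 CPM in combination, 69.8 and 63.2 CPM in particulate, 97.6 and 82.0 CPM in fucoidan and 95.1 and 93.5 CPM in control cells. Combination replicate 1 was the lowest library, below its replicate. The combination was lower than control by −0.97 ± 0.29 (adjusted p = 0.0478); this call held only when combination replicate 2 was left out, with an adjusted p of up to 0.222 in the 7 other left-out fits.

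Of the SNHG transcripts, 4 rose with particulate. SNHG15 (chr7:44983023-44986961), a short-lived host RNA that spans SNORA9, had 9.20 and 14.4 CPM in combination, 27.8 and 18.1 CPM in particulate, 5.38 and 7.24 CPM in fucoidan and 8.42 and 7.48 CPM in control cells. Particulate libraries were the 2 highest, and the combination libraries lay between them and the rest. The fold change was 1.53 ± 0.29 for particulate over control (adjusted p = 0.00566, and up to 0.0682 without either control replicate) and 0.57 ± 0.29 for combination over control (adjusted p = 0.194).

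SNHG17 (chr20:38420588-38435353), host of 5 annotated snoRNA genes, among them SNORA71A and SNORA71B, had 18.8 and 20.8 CPM in combination, 36.7 and 23.5 CPM in particulate, 9.44 and 11.3 CPM in fucoidan and 12.4 and 13.4 CPM in control cells. It showed the same order of groups, with a fold change of particulate over control of 1.22 ± 0.23 (adjusted p = 0.00556, and 0.0757 without control replicate 1). SNHG12 had 17.1 and 13.8 CPM in combination, 20.7 and 14.2 CPM in particulate, 8.81 and 10.8 CPM in fucoidan and 10.1 and 9.84 CPM in control cells. Its exposed libraries also lay above all others (0.81 ± 0.23, adjusted p = 0.0358). SNHG1 (chr11:62851988-62855914), host of SNORD27 and of 6 other annotated snoRNA genes, had 106 and 98.4 CPM in combination, 130 and 109 CPM in particulate, 72.5 and 82.0 CPM in fucoidan and 76.9 and 81.6 CPM in control cells. The exposed libraries were highest again (0.59 ± 0.15, adjusted p = 0.0248). The calls on SNHG12 and SNHG1 ended without either control, either fucoidan replicate or particulate replicate 1 (adjusted p up to 0.189 and 0.198).

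Replicate 1 of the particulate group was above replicate 2 in 20 of the 22 SNHG members, by a median log2 difference of 0.47, against a median of −0.05 between the 2 LINC values of the same libraries. The part of this offset in the 4 increases was not tested; with particulate replicate 1 left out, SNHG15 and SNHG17 kept their calls and SNHG1 and SNHG12 lost them.

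SNHG18 (chr5:9546200-9550609), host of SNORD123, was the 1 SNHG transcript that fell. It had 14.2 and 9.42 CPM in combination, 8.99 and 9.59 CPM in particulate, 22.4 and 21.5 CPM in fucoidan and 19.96 and 22.3 CPM in control cells. All exposed libraries lay below all others (−1.19 ± 0.22, adjusted p = 0.00485, and 0.0511 without control replicate 2). Apart from SNHG1, the SNHG transcripts among the 12 most abundant members were not called. SNHG29 had 632 and 485 CPM in combination, 582 and 466 CPM in particulate, 636 and 717 CPM in fucoidan and 595 and 623 CPM in control cells (−0.22 ± 0.18 for particulate over control, adjusted p = 0.423). The particulate-over-control values of SNHG19 (−0.45 ± 0.28), SNHG6 (0.06 ± 0.18), SNHG5 (0.17 ± 0.19), SNHG16 (0.35 ± 0.18), SNHG3 (0.28 ± 0.19), SNHG7 (−0.04 ± 0.25), SNHG8 (−0.38 ± 0.18), SNHG32 (−0.28 ± 0.24) and SNHG14 (−0.14 ± 0.20) also missed the threshold.

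Genes that act on these transcripts were described from lists, in particulate against control unless another comparison is named. Of 18 proteins and assembly factors of small nucleolar ribonucleoproteins, 7 were higher and 0 lower in particulate against control cells, with a median log2 fold change of 0.54 against 0.01 over all genes tested. The rise was smaller in the combination: 1 of the 18 was higher against control (median 0.08) and 5 against fucoidan (median 0.27), with 0 lower. Of all genes tested, 8.17% and 10.2% were higher in these 2 comparisons. NOP58 (1.24 ± 0.20) and NOP56 (1.03 ± 0.26) are core proteins of box C/D particles, DKC1 (1.08 ± 0.22) is the pseudouridine synthase of box H/ACA particles, and NOLC1 (0.94 ± 0.18) is their nucleolar chaperone. Among 23 further snoRNA hosts, mainly protein-coding, HSPA9 (0.89 ± 0.16) and NCL (0.66 ± 0.14) were higher and 0 lower, and the noncoding host GAS5 was not called (0.44 ± 0.17, adjusted p = 0.108). Of 13 microRNA processing and effector genes 1 was higher, XPO5, the exporter of microRNA precursors (0.76 ± 0.16), and 0 were lower. Of 15 nonsense-mediated decay factors UPF3B (0.62 ± 0.16) and SMG5 (0.43 ± 0.13) were higher and 0 lower. Among all genes tested 9.11% were higher and 11.5% lower, so 1 of 13, 2 of 15 and 2 of 23 lie near the share of all genes. Of 10 regulators of TOP messages 3 were higher, among them the translation repressor EIF4EBP1 (0.93 ± 0.23), and 0 lower. Among 18 further long noncoding RNAs, 13 of which were tested, LUCAT1, a stress-induced transcript, was higher (3.40 ± 0.54) and CASC15 lower (−2.11 ± 0.22). That is 1 of 13 in each direction, again near the shares of all genes.

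The question whether the particulate effect was the same in cells that also received fucoidan was addressed by combination against fucoidan. This comparison shares no library with particulate against control. Both came from 1 fit with the same scaling and estimate of spread, so they are not independent. Combination cells differed from fucoidan cells in 38 members, 9 higher and 29 lower (34.9%), against 20.7% of all genes tested, 10.2% higher and 10.6% lower. Of the 499 other long noncoding genes with at least 200 reads, 3.81% were higher and 22.4% lower, beside 8.26% and 26.6% of the members. By family, 6 LINC were higher and 25 lower, 2 MIRHG higher and 3 lower, and 1 SNHG higher and 1 lower. Of the 13 members higher in particulate against control, 7 were higher here too, and of the 24 lower ones 21 were lower here too, with 0 called in opposite directions. The 28 shared members are 75.7% of the 37 and 73.7% of the 38. The corresponding shares over all genes tested were 65.0% of 3089 and 64.6% of 3110. By family, 24 of 29 LINC, 2 of 3 MIRHG and 2 of 5 SNHG calls were shared; the SNHG calls shared were SNHG17 (0.93 ± 0.23 for combination over fucoidan, adjusted p = 0.0208) and SNHG18 (−0.90 ± 0.21, adjusted p = 0.0176). Both of these ended without either fucoidan replicate, at an adjusted p of up to 0.164 for SNHG17 and 0.116 for SNHG18.

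**Figure D3:**
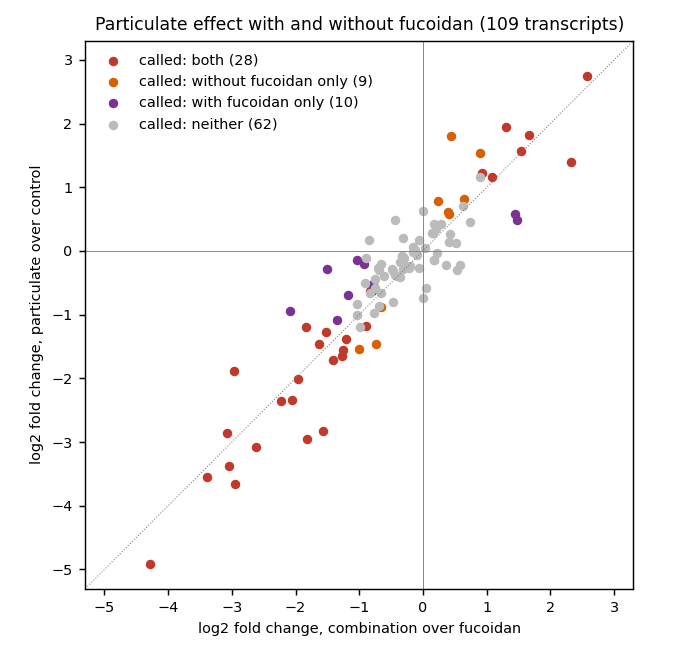
Log2 fold change of combination over fucoidan (x axis) and of particulate over control (y axis) for the 109 transcripts; colours give where each was called, and the dotted line marks equal change. The 28 transcripts called in both comparisons lie in the lower left and upper right corners, 9 were called without fucoidan and 10 with it.

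In combination against fucoidan the largest decreases were in LINC01111 (−4.29 ± 0.36), LINC02984 (−3.39 ± 0.34), LINC01836 (−3.08 ± 0.48), LINC01843 (−3.05 ± 0.40) and LINC02159 (−2.97 ± 0.32). Each kept its call in all 8 left-out fits. The largest increases were in MIR222HG (2.57 ± 0.49), MIR155HG (2.32 ± 0.34), LINC02454 (1.66 ± 0.40), LINC02693 (1.53 ± 0.22) and LINC02535 (1.47 ± 0.33). Of these, MIR155HG and LINC02693 kept their call in all 8 fits, and the others lost it without either fucoidan replicate, at an adjusted p of up to 0.0614, 0.137 and 0.113. LINC02535 had 2.53 and 3.29 CPM in combination, 2.31 and 3.18 CPM in particulate, 1.01 and 1.08 CPM in fucoidan and 2.19 and 1.73 CPM in control cells. It lay lowest with fucoidan alone and was not called in particulate against control (0.48 ± 0.31, adjusted p = 0.304).

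Combination cells differed from control cells in 32 members, 6 higher and 26 lower (29.4%), against 17.0% of all genes tested, 8.17% higher and 8.86% lower. The 499 other long noncoding genes with at least 200 reads were higher in 3.01% and lower in 17.4%, beside 5.5% and 23.9% of the members. By family, 4 LINC were higher and 23 lower, 2 MIRHG higher and 2 lower, and 0 SNHG higher and 1 lower. All 4 SNHG increases seen with particulate alone missed the threshold here, at 0.57 ± 0.29 for SNHG15, 0.62 ± 0.23 for SNHG17, 0.63 ± 0.23 for SNHG12 and 0.37 ± 0.15 for SNHG1 (adjusted p between 0.0908 and 0.194). The 6 higher members were LINC02454 (2.07 ± 0.42), MIR222HG (2.11 ± 0.47), LINC01605 (1.46 ± 0.22), MIR155HG (1.29 ± 0.31), LINC02693 (1.24 ± 0.21) and LINC00973 (0.77 ± 0.23). LINC01605 kept its call in all 8 left-out fits; LINC02454 lost it without control replicate 1 (adjusted p = 0.12), and MIR222HG, MIR155HG and LINC02693 without either control replicate (up to 0.15, 0.162 and 0.0782). LINC00973 lost it in 7 of the 8 fits, all except that without combination replicate 1 (up to 0.231). The largest decreases were in LINC01111 (−3.50 ± 0.36), LINC02984 (−3.30 ± 0.34), LINC01836 (−3.09 ± 0.48), LINC01843 (−2.87 ± 0.40) and LINC02874 (−2.68 ± 0.57), of which the last lost its call without either control replicate (adjusted p up to 0.114).

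Counting the 3 comparisons that add particulate, 48 members were called in at least 1, 27 in all 3 (6 higher, 21 lower), 0 in opposite directions and 61 in none. Of all genes tested, 29.9% were called in at least 1 and 10.5% in all 3 (4.16% higher, 6.31% lower), against 44.0% and 24.8% of the members (5.50% higher, 19.3% lower). Particulate against control and combination against control share the control libraries, and both combination comparisons share the combination libraries, so these calls are not separate observations.

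**Figure D4:**
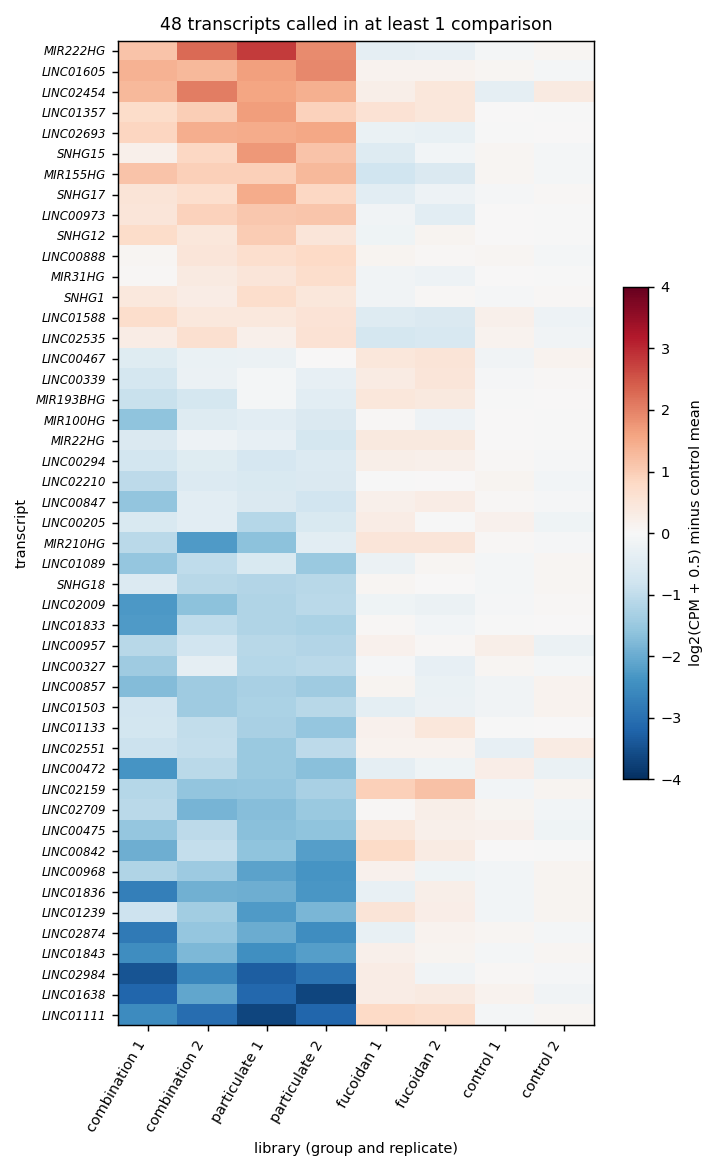
Log2(CPM + 0.5) minus the control mean (colour) for the 48 transcripts called in at least 1 of 3 comparisons (y axis, ordered by the fold change of particulate over control) in the 8 libraries (x axis). The 4 particulate-exposed libraries form the coloured block at the left, and combination replicate 1 is paler or darker than its replicate in many transcripts.

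Fucoidan alone changed no member past the threshold. Fucoidan against control gave 0 calls among the 109 members and 0% among all genes with edgeR's quasi-likelihood test, 0 members with DESeq2, and 5 members (4.59%) at an unadjusted p under 0.05, against 4.41% of all genes. The smallest p belonged to LINC02159, which had 6.16 and 7.30 CPM in fucoidan and 2.69 and 3.26 CPM in control cells (1.18 ± 0.28, unadjusted p = 0.00206, adjusted p = 0.612). MIR155HG had 0.546 and 0.718 CPM in fucoidan and 1.42 and 1.21 CPM in control cells (−1.03 ± 0.37, adjusted p = 0.999). The libraries of the 2 groups did not overlap for either transcript. That was so for 60 of the 109 members in this comparison, so it does not single these 2 out.

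Adding fucoidan to particulate also gave no call among the members. Combination against particulate had 0 called members, against 0.0866% of all genes (13 of 15010; 0.0799% higher and 0.00666% lower), with 0 by DESeq2 and 15 (13.8%) at an unadjusted p under 0.05, against 17.3% of all genes. Of the 15, the 4 with the smallest p were LINC00968 (1.26 ± 0.33, adjusted p = 0.211), LINC01239 (1.58 ± 0.46, adjusted p = 0.220), SNHG15 (−0.96 ± 0.28, adjusted p = 0.220) and LINC02009 (−0.85 ± 0.25, adjusted p = 0.223). LINC00968 had 2.07 and 1.67 CPM in combination and 0.865 and 0.672 CPM in particulate cells. The count rested on combination replicate 2: without it 25 members were called, 5 higher and 20 lower, or 22.9% of members against 20.9% of all genes in that fit. Without combination replicate 1 it was 1 member, or 0.917% against 0.382% of all genes. In the fit without combination replicate 2 the lone combination library is the one that stands apart and is assumed to vary like the other groups. In that fit MIR100HG was lower (−1.13, adjusted p = 0.00218), SNHG15 lower (−1.33, adjusted p = 0.00884), MIR222HG lower (−1.39, adjusted p = 0.0232) and LINC00968 higher (1.41, adjusted p = 0.0283).

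The difference between the 2 particulate effects, with and without fucoidan, was tested as an interaction. It gave 0 called members and 0% of all genes with edgeR, 0 members with DESeq2, which gave an adjusted p for 66 of the 109, and 6 members (5.50%) at an unadjusted p under 0.05, against 4.45% of all genes. The smallest adjusted p was 0.897, shared by LINC00968 (1.26 ± 0.42) and MIR193BHG (−1.22 ± 0.42). Without combination replicate 2 the interaction called 4 members, all lower, or 3.67% against 5.56% of all genes. MIR193BHG, host of miR-193b and miR-365a, had 1.07 and 1.28 CPM in combination, 2.25 and 1.65 CPM in particulate, 3.43 and 3.29 CPM in fucoidan and 2.34 and 2.43 CPM in control cells. It was lowest in the 2 combination libraries and was called lower in combination against fucoidan (−1.50 ± 0.30, adjusted p = 0.00843), a call that ended without either fucoidan replicate (adjusted p up to 0.0732).

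The calls rested on few libraries. All calls of particulate against control on the 109 members numbered 15 without control replicate 1 and 21 without control replicate 2, or 13.8% and 19.3% of members, against 5.83% and 7.7% of all genes in those fits. Of the 37 calls, 13 held in each of the 8 left-out fits. The 13 comprised 11 LINC transcripts that fell and 2 that rose, LINC01605 and LINC02693. In combination against control 8 of 32 held in each fit, and in combination against fucoidan 11 of 38.

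Positions were compared in GENCODE 29. Exons of 53 members overlapped another annotated gene, 41 on the opposite strand and 20 on the same strand, among them 4 of the 13 higher and 8 of the 24 lower members. Whether the counting used strand was not stated in the sources, so these values are less certain. LINC02693 lies 8.5 kb from KCNJ12, in a region with near-identical copies, and its value is uncertain too. For 9 of the higher members the nearest protein-coding gene was tested, and 4 of these genes were higher and 0 lower with particulate. For 21 of the lower members, 9 nearest genes were lower and 2 higher. For 62 members not called, 8 nearest genes were higher and 8 lower, and among all genes tested 9.11% were higher and 11.5% lower.

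Some neighbours lay close by. SNHG1 starts 0.2 kb from SLC3A2, an amino acid transporter subunit that was higher (1.27 ± 0.33), and SNHG18 lies 0.1 kb from SEMA5A, a semaphorin that was lower (−1.31 ± 0.21). LINC02874 lies 13.6 kb from KRT80, a keratin gene on the same strand that was lower (−2.66 ± 0.15), and LINC00842 lies 6.6 kb from ANXA8L1, also lower (−2.73 ± 0.42). LINC01638 has its nearest coding gene, MN1, 523.5 kb away (−1.99 ± 0.25). Opposite directions were seen for LINC01843 and JADE2 (0.67 ± 0.17) and for LINC02009 and CCRL2 (1.06 ± 0.31).

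Promoter sequences, from 250 bases before to 50 bases after the RefSeq start, were found for 89 of the 109 members, 9 of them higher and 18 lower with particulate. The AP-1 element TGANTCA, read on both strands, occurred in 7.71% of 35116 promoters, in 9 of the 89 (10.1%), in 2 of the 9 higher and in 3 of the 18 lower. The antioxidant response core TGACNNNGC, which can overlap it, occurred in 13.3% of all promoters, in 0 of the 9 and in 4 of the 18. The xenobiotic response core GCGTG was in 36.5% of all, 5 of the 9 and 4 of the 18, and the hypoxia response core ACGTG in 21.4%, 2 and 3; the C/EBP-ATF element TGATGNAA was in 3.62%, 0 and 1. One of the higher promoters counted for TGANTCA and for ACGTG is that of LINC00973, whose RefSeq start lies 66.5 kb from its GENCODE 29 start. Of the 3 lower promoters with TGANTCA, those of LINC02009 and LINC02159 hold it in a stretch that both share. They are therefore not separate occurrences. All the counts of motifs are of letter matches, not shown to be bound sites.

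The promoter of MIR155HG (GRCh38.p14, chr21:25561895-25562194, plus strand) is printed because this host rose in all 3 comparisons and the sequence holds TGANTCA. MIR222HG also rose in all 3, but its promoter has no such match. LINC00973 met both conditions and is not printed. The promoters printed were taken only from called members with a TGANTCA match, so its presence in them is not a result. Those of LINC02009 (chr3:46423618-46423917, minus strand) and LINC02159 (chr5:160938577-160938876, minus strand), both of which fell in all 3, are printed because they were alike. This pair was chosen after its values were seen. Among 351 pairs of promoters of called members compared by local alignment, they shared 191 of 223 aligned bases (85.7%), and the pair with the next highest score, LINC00957 and MIR31HG, aligned over 46 bases. Capitals mark the TGANTCA match, and each sequence reads 5′ to 3′ on the gene's strand:
MIR155HG: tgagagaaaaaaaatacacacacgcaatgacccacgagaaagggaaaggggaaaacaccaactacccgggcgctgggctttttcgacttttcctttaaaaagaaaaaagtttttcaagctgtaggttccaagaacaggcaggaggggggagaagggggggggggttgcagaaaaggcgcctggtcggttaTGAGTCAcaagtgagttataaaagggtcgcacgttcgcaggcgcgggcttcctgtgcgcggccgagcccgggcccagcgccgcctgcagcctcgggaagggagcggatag
LINC02009: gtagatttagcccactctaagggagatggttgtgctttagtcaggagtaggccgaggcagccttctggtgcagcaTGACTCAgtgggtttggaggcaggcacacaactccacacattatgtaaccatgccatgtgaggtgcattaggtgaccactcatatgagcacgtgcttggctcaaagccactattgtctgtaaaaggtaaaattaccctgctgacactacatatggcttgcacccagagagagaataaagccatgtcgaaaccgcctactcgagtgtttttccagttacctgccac
LINC02159: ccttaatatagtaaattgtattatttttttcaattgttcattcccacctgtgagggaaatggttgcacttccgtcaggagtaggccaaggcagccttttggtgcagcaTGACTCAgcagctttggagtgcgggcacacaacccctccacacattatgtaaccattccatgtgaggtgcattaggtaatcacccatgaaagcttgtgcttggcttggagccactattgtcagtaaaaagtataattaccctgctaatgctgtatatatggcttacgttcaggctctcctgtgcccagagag
LINC02009 had 2.80 and 4.74 CPM in combination, 6.51 and 7.15 CPM in particulate, 14.0 and 13.3 CPM in fucoidan and 15.3 and 16.1 CPM in control cells. LINC02159 had 1.07 and 0.669 CPM in combination, 0.692 and 0.916 CPM in particulate, 6.16 and 7.30 CPM in fucoidan and 2.69 and 3.26 CPM in control cells. Both were lower in particulate than in control cells, at −1.20 ± 0.24 for LINC02009 (adjusted p = 0.00746, up to 0.0656 without either control or particulate replicate 1) and −1.88 ± 0.34 for LINC02159 (adjusted p = 0.00452). LINC02009 was lower still in the combination than with particulate alone, LINC02159 was higher with fucoidan alone than in control cells, and neither of these 2 differences passed the threshold.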

How the data were processed

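The deposited gene-level read counts were the input of the tests; per the submitters' processing notes, bcl2fastq, fastp 0.20.0, FastQC 0.11.9, HISAT2 2.1.0, featureCounts of Subread 2.0.1 and the build GRCh38 were used. TPM values were also used as deposited, for levels and 1 alternative fit. Per the labels' protocols, libraries were stranded and poly(A)-selected (150-bp pairs). No source used here states the annotation release, the strand setting or how multiply aligned reads were treated.

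Genes were kept by filterByExpr with the 4 groups, scaling was by TMM, and group means were fitted over all 8 libraries with edgeR 4.0.16 (R 4.3.3; glmQLFit, then glmQLFTest), leaving 4 residual degrees of freedom at a common dispersion of 0.0288. The 6 contrasts were adjusted by Benjamini-Hochberg over 15010 genes, with 0.05 as threshold; the standard error is the log2 fold change over the square root of F, and printed CPM are counts per TMM-scaled library of kept genes. DESeq2 1.42.0 and limma 3.58.1 on log2(TPM + 0.5) were alternatives. The code was tested on simulated counts. Promoters were aligned with Biopython 1.88.

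Members and gene lists were chosen with earlier results of these data known. Named were the 12 largest called changes per direction in particulate against control (5 in the comparisons of combination with control and fucoidan), the 12 most abundant members, those at the limit of 200 reads and a panel, of which a selection is printed. The largest changes were taken from called members whose libraries did not overlap between the 2 groups compared. SNHG18, LINC00472, LINC02009, MIR193BHG in the interaction and the members with the smallest p where none was called were added after their values were seen.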

Additional observations from a re-analysis of the deposited data

How the results depend on the processing

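Of the values of named members recomputed under the alternatives, 2696 kept direction and side of the threshold, 160 lost the call and 74 gained one. A further 77 changed sign, 12 of them without combination replicate 2; none of these 77 was called in the reported fit. With each library left out in turn, members called ran from 15 to 52 in particulate against control, 9 to 56 in combination against control, 14 to 59 in combination against fucoidan, 0 to 25 in combination against particulate and 0 to 4 in the interaction; fucoidan against control stayed at 0. The highest counts came without combination replicate 2, for particulate against control without either combination library. Fitting only the groups compared gave 4 members in fucoidan against control, 10 in combination against control and 23 in combination against fucoidan. Without a filter on low counts, 1 member was called in fucoidan against control, 5 in combination against particulate and 1 in the interaction. The causes were not tested. DESeq2, DESeq2 size factors and limma on TPM stayed within 1.5 times each count. With the replicate number as a block, 33 members were called in particulate against control and 24 in combination against control. In combination against fucoidan 38 were called, and 0 in the others. Differences of replicate 1 from replicate 2, taken over the genes tested, correlated between groups at −0.250 to 0.0754. Such correlations cannot decide whether same-numbered libraries were handled together, so pairing was not settled. With 2 libraries per group, LINC transcripts under 1 CPM rest on few reads.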
